A study of Mus musculus with 6 samples.

Results

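The 10 genes examined here (*Piwil2*, *Mael*, *Asz1*, *Fkbp6*, *Tdrd1*, *Tdrkh*, *Tdrd12*, *Tdrd9*, *Ddx4* and *Mov10l1*) encode proteins of the piRNA pathway, and were taken by symbol from the 23420 genes in the count files. All 10 were present in every file. The RNA came from mouse embryonic stem cells (ESCs) of the E14 line, kept in LIF together with PD0325901, which inhibits MEK, and CHIR99021, which inhibits GSK3. The genotypes were wild type (WT) and *Patz1* -/- (KO), with 3 libraries each and the same medium for both. PATZ1 is a transcription factor with a BTB domain and zinc fingers, examined by the study at borders between chromatin domains. The KO was made by Cas9 cutting at *Patz1* and cloning of edited cells. The study made several KO clones, and the sample titles do not say which of them gave the 3 KO libraries. An effect of the knockout and a feature of a clone therefore cannot be told apart.

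piRNAs are small RNAs of the germline that guide PIWI proteins to transcripts of transposons, which are then cut or silenced at their genes. The precursors are unwound by RNA helicases and matured at the surface of mitochondria and in nuage, a granule in which Tudor proteins bind methylated arginines of PIWI proteins. In somatic cells many of these genes are silenced by methylation of their promoters and by repressor complexes that bind E-box and E2F sites. DNA methylation is low in ESCs grown with inhibitors of both kinases, and transcripts of germline genes are commonly found there.

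The libraries held 11040756 to 47721070 counts. Replicate 3 was the shallow library of both genotypes, and carried 12.5% to 14.4% of its counts on the ribosomal precursor *Rn45s* against 1.79% to 3.03% elsewhere. Levels are given as normalized counts, the deposited counts divided by the size factor of the library. A floor of 3 counts corresponded to 1.69 to 2.12 normalized counts in replicates 1 and 2, and to 7.93 (KO) and 8.21 (WT) in replicate 3. *Patz1* had 1838, 1983 and 1843 normalized counts in WT and 853, 862 and 862 in KO. Its log2 fold change was -1.14, so that KO kept 45.5% of the WT level of RNA. By western blot, the study reported loss of PATZ1 protein in its KO lines. The 6 ESC markers were abundant (summed level 97030 to 101700 in WT and 105600 to 108600 in KO) and 0 of them passed the test (DESeq2, with 0 also at an unadjusted p under 0.05). With the replicate number as a block, where 14.6% of all genes passed against 7.49% without it, 2 of the 6 passed, both higher in KO: *Pou5f1* (log2 fold change 0.14, adjusted p 0.0405 by DESeq2) and *Zfp42* (0.15, adjusted p 0.0298). Of 9 markers of germ cells and meiosis, 1 was at or under the floor in every library, and the summed levels were 1928 to 2316 in WT and 2173 to 2245 in KO. Of these, *Dazl* was lower and *Syce1* higher in KO. The 6 markers of the transient 2-cell-like state summed to 303 to 1882 in WT and 72.2 to 278 in KO, and 3 of them passed, all lower, or all 6 with the block, beside the same shares of all genes (7.49% and 14.6%). Of 6 fibroblast markers, 3 were at or under the floor in every library and the sum was at most 30.4. The 6 primitive endoderm markers summed to 106 to 159 in WT and 149 to 206 in KO. Of the 5 with an adjusted p-value, 1 passed, beside 7.49% of all genes: *Dab2*, which was higher in KO. *Gata4*, *Gata6*, *Sox17* and *Sox7* did not pass (log2 fold changes -0.17, -0.12, -0.83 and -0.007). *Foxa2* had 0 counts in each WT library and 22, 7 and 2 counts in KO replicates 1 to 3, with no adjusted p-value. The part of these markers in the results below was not tested.

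The promoters of the genes are shown first, since silencing of these genes in somatic cells acts there. RefSeq (GRCm38.p6) gave promoter windows, from 250 bases before the start of transcription to 50 after it, for 9 of the 10 genes. The palindrome CACGTG, the E-box bound by MYC, MAX and MGA, was present in a window of 6 of these 9 genes (*Fkbp6*, *Tdrd9*, *Mael*, *Ddx4*, *Mov10l1* and *Tdrd1*), and in 8.09% of the 27025 genes with a window. *Fkbp6* and *Tdrd9* held 2 copies each. The 250 bases before the start are printed for 5 genes: the 3 that passed the test below, *Tdrd9*, which was the fourth without overlap between genotypes, and *Ddx4*, which holds the E-box and did not pass. Capitals mark CACGTG, and each sequence reads 5′ to 3′ toward the gene.
Fkbp6, chr5:135350045-135350294, minus strand: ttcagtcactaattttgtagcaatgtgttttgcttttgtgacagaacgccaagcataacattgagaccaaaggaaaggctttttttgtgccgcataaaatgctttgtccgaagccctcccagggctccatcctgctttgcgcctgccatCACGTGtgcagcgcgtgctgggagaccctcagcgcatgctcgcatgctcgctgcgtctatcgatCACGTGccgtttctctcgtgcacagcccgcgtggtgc
Tdrd9, chr12:111971309-111971558, plus strand: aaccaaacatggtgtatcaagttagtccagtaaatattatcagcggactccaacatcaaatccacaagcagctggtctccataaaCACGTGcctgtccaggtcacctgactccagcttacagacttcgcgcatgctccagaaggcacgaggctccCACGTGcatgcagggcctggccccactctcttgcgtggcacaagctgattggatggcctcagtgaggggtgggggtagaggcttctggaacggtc
Asz1, chr6:18109062-18109311, minus strand: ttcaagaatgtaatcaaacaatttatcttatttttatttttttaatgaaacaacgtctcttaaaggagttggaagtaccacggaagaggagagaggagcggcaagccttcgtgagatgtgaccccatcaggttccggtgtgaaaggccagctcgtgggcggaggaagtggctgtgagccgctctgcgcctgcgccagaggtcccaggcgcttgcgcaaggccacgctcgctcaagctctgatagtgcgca
Mael, chr1:166238745-166238994, minus strand: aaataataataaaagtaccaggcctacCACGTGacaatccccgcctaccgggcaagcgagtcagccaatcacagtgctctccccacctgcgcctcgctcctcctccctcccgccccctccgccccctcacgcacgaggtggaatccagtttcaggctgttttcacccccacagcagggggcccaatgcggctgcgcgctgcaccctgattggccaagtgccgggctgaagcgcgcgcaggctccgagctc
Ddx4, chr13:112652311-112652560, minus strand: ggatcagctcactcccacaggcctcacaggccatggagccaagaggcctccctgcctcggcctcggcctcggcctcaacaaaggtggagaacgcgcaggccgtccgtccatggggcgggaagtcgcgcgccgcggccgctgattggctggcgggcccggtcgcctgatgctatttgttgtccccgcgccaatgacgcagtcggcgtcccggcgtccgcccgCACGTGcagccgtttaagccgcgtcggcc
The E-boxes of *Fkbp6* began 101 and 37 bases before the first annotated start and lay in the window of the second start as well. Those of *Tdrd9* began 165 and 95 bases, that of *Mael* 223 bases, and that of *Ddx4* 29 bases before the start. *Asz1* had none in this window.

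**Figure D1:**
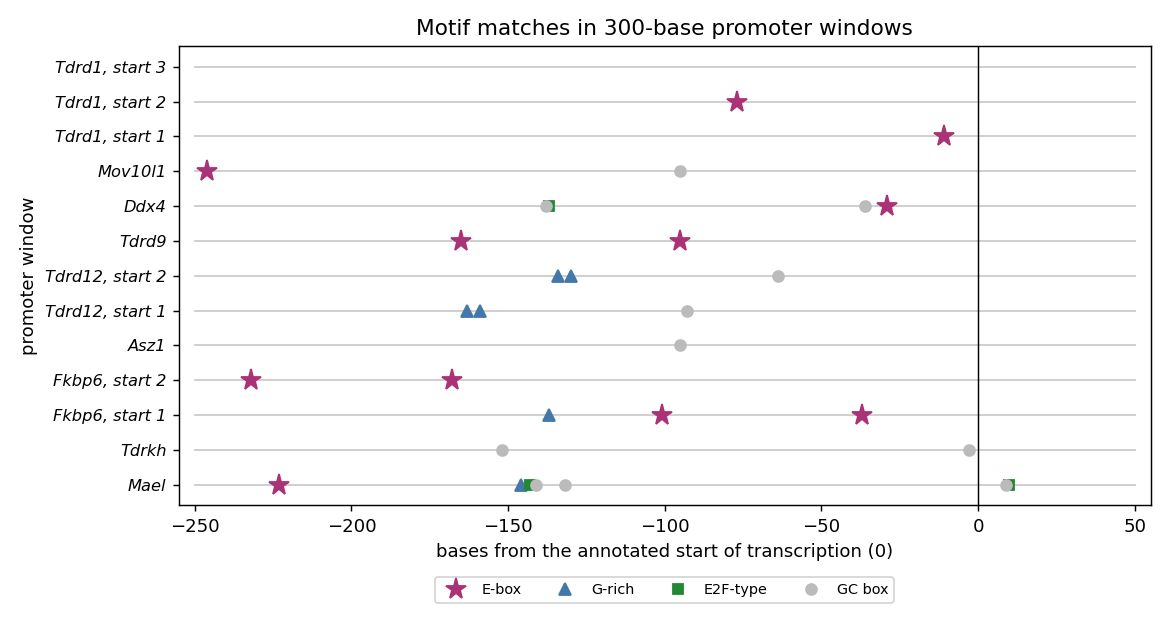
Matches of 4 motifs, on either strand, in the RefSeq promoter windows of 9 genes, with the distance from the annotated start in bases on the x axis and 1 line per window (genes with several annotated starts have several lines). Stars mark the E-box CACGTG, found in 6 of the 9 genes and in duplicate in *Fkbp6* and *Tdrd9*, and the other symbols mark the G-rich, E2F-type and GC box motifs.

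GGGAGGG, a G-rich sequence of the kind bound by MAZ, a relative of PATZ1, was present on either strand in 3 of the 9 genes (*Mael*, *Fkbp6* and *Tdrd12*, where 2 matches overlap) and in 23.8% of all genes. TCCCGCC, of E2F type, was present in 2 of the 9 (*Mael* and *Ddx4*) and in 12.7% of all genes. GGGCGG, the GC box, which can overlap both other motifs, was present in 6 of the 9 and in 38.2% of all genes. CpG dinucleotides, the sites of methylation, numbered 38 in the window of *Ddx4*, 24 in *Mael*, 21 and 32 in the windows of *Fkbp6*, 25 in *Tdrkh*, 20 in *Mov10l1*, 17 in *Asz1*, 11 and 9 in the windows of *Tdrd12*, 10 in *Tdrd9*, and 20, 25 and 3 in the windows of *Tdrd1*, against a median of 7 over all 32851 windows. A match is a description of the sequence and does not show binding, and methylation was not measured in these files.

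To ask which piRNA pathway genes differed when PATZ1 was lost, KO was compared with WT. *Fkbp6* was 7.14-fold lower and *Asz1* 3.31-fold lower in KO, and *Mael* was 1.75-fold higher. These 3 of the 10 genes (30.0%) had an adjusted p-value under 0.05, where 7.49% of all 15309 genes tested did (DESeq2, Benjamini-Hochberg over all genes). By direction, 1 of the 10 was higher and 2 were lower, against backgrounds of 2.7% and 4.78%. With edgeR 3 of the 10 passed, and 6.41% of all genes. With the replicate number as a block 3 passed, and 14.6% of all genes. All 10 passed the filter on low counts. Their median log2 fold change was 0.03, and that of all genes tested was 0.01. For 4 of the 10 genes every KO library lay on 1 side of every WT library, as was so in 25.6% of all genes tested. In bulk RNA, fewer cells with a transcript and less of it per cell cannot be told apart. None of the 10 genes lies on chromosome 11 or X, where 21.4% and 24.2% of genes passed. The median log2 fold changes of the chromosomes that hold them were between -0.0023 and 0.0462.

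**Figure D2:**
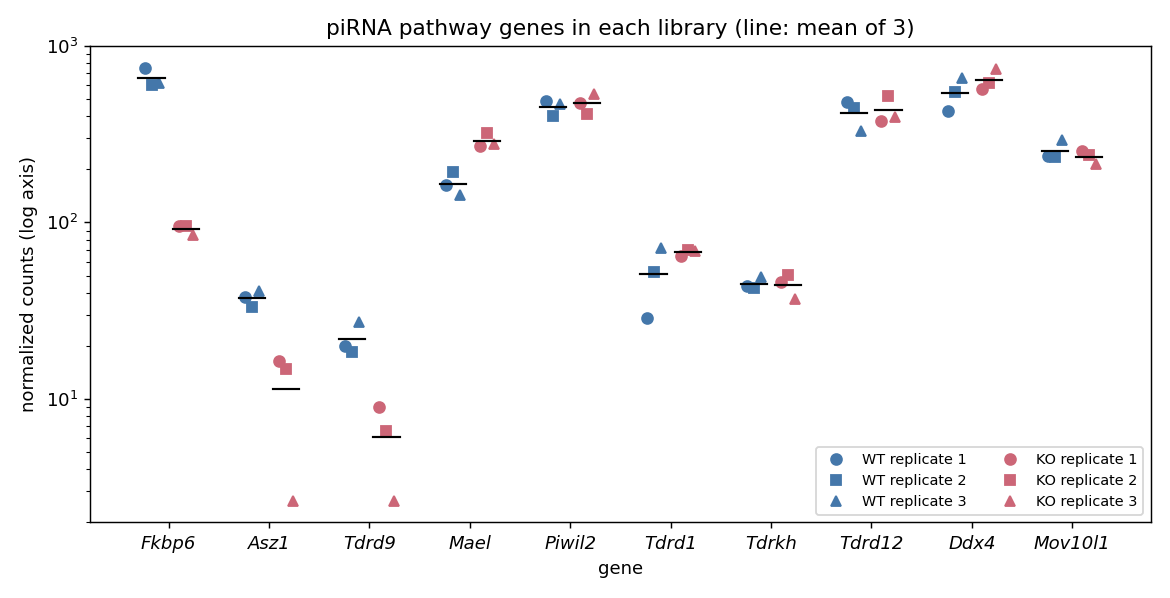
Normalized counts (log axis) of the 10 genes in each library, WT in blue and KO in red, with replicates 1 to 3 as circles, squares and triangles and a line at the mean of 3. The WT and KO points are apart for *Fkbp6*, *Asz1*, *Tdrd9* and *Mael* and overlap for the other 6 genes.

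The 3 genes that passed are described first. *Fkbp6* (chromosome 5, 135291704 to 135350044, minus strand, GRCm38, protein coding) encodes an immunophilin-type partner of HSP90 that acts in the loading of piRNAs and is also needed in meiosis. In WT its normalized counts were 756, 600 and 619, and in KO 95.9, 96.1 and 84.6. Each KO library was thus far under the lowest WT library. The log2 fold change was -2.82 (adjusted p 5.94e-60 by DESeq2, SE 0.17). Within pairs of equal replicate number it was -2.96, -2.63 and -2.86 on the log2(normalized count + 1) scale. *Fkbp6* passed in all 13 alternative fits, with log2 fold changes from -2.89 to -2.70.

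*Mael* (chromosome 1, 166201201 to 166238747, minus strand) encodes Maelstrom, an HMG-box protein of nuage needed to silence transposons. It had 162, 192 and 142 normalized counts in WT and 271, 320 and 280 in KO. The lowest KO library was above the highest WT library. The log2 fold change was 0.79 (adjusted p 0.000394 by DESeq2, SE 0.18), with 0.74, 0.73 and 0.97 within the pairs. *Mael* also passed in all 13 alternative fits, where the adjusted p was between 6.12e-05 and 0.0390.

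*Asz1* (chromosome 6, 18050964 to 18109061, minus strand) encodes GASZ, an ankyrin-repeat scaffold anchored to mitochondria. Its level was low, with 37.7, 33.2 and 41.1 normalized counts in WT and 16.4, 14.8 and 2.64 in KO. The last value is 1 count, under the floor. The groups did not overlap, and the log2 fold change was -1.505 (adjusted p 0.0288 by DESeq2, SE 0.48). The call depended on all 6 libraries being kept: the adjusted p was between 0.0661 and 0.218 without any 1 of them, where the log2 fold change ran from -1.79 to -1.24, and it was 0.0537 with edgeR. The unadjusted p was under 0.05 in all 13 alternative fits. Without both replicate 3 libraries the log2 fold change was -1.19.

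The PIWI protein and its Tudor partners showed no difference that passed. *Piwil2* (chromosome 14, 70372477 to 70429383, minus strand) encodes MILI, the PIWI protein that cuts transposon RNA. It had 486, 402 and 471 normalized counts in WT and 477, 415 and 534 in KO. The ranges overlapped, with a log2 fold change of 0.06 (95% interval -0.23 to 0.35, adjusted p 0.919, DESeq2). *Tdrd1* (chromosome 19, 56826209 to 56870012, plus strand) encodes a Tudor protein that binds MILI. Its WT libraries spread widely, at 28.6, 52.3 and 71.2 normalized counts, while the KO libraries lay close together at 64.9, 69.4 and 68.7. The log2 fold change was 0.50 (95% interval -0.16 to 1.17, adjusted p 0.511), and the pairs gave 1.16, 0.40 and -0.05, so that direction differed between pairs. *Tdrd12* (chromosome 7, 35469098 to 35537745, minus strand), a Tudor protein with a helicase-like domain, had 484, 444 and 331 normalized counts in WT and 377, 519 and 399 in KO. The log2 fold change was 0.03 (95% interval -0.32 to 0.37, adjusted p 0.972). *Tdrkh* (chromosome 3, 94413273 to 94434668, plus strand) encodes a mitochondrial Tudor protein that takes part in trimming of piRNAs. It had 43.5, 42.4 and 49.3 normalized counts in WT and 45.7, 50.4 and 37.0 in KO (log2 fold change 0.04, 95% interval -0.59 to 0.67, adjusted p 0.979). Exons of *Tdrkh* overlap those of *Oaz3* on the opposite strand over 2255 bases, and the use of strand in counting was not stated, so its level is uncertain. The intervals show that a change of the size seen for *Mael* lay outside the range for *Piwil2*, *Tdrd12* and *Tdrkh* and inside it for *Tdrd1*.

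The helicases also did not pass in this fit. *Ddx4* (chromosome 13, 112598333 to 112652475, minus strand), the mouse vasa homologue and a classical marker of germ cells, had 428, 549 and 657 normalized counts in WT and 573, 620 and 740 in KO. KO was higher within each pair (by 0.42, 0.18 and 0.17 on the log2 scale), but the ranges overlapped. The log2 fold change of 0.25 (95% interval -0.07 to 0.57) did not pass (adjusted p 0.496, DESeq2). With the replicate number as a block it did not pass either (0.26, adjusted p 0.107, DESeq2). *Mov10l1* (chromosome 15, 88982909 to 89055152, plus strand), the helicase that feeds piRNA precursors into processing, had 237, 235 and 293 normalized counts in WT and 254, 241 and 214 in KO (log2 fold change -0.07, 95% interval -0.39 to 0.26, adjusted p 0.919). *Tdrd9* (chromosome 12, 111971559 to 112068854, plus strand) encodes a helicase with a Tudor domain that works with the nuclear PIWI protein. It had 20.02, 18.4 and 27.4 normalized counts in WT and 9.03, 6.52 and 2.64 in KO, from 99 counts in all 6 libraries together. Every KO library was under every WT library. The log2 fold change was -1.64 (adjusted p 0.0767 by DESeq2, SE 0.60), which missed the threshold, while edgeR gave an adjusted p of 0.0479 and limma-voom 0.0411. KO replicate 3 held 1 count, and the adjusted p was 0.143 without that library and 0.312 without both replicate 3 libraries.

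**Figure D3:**
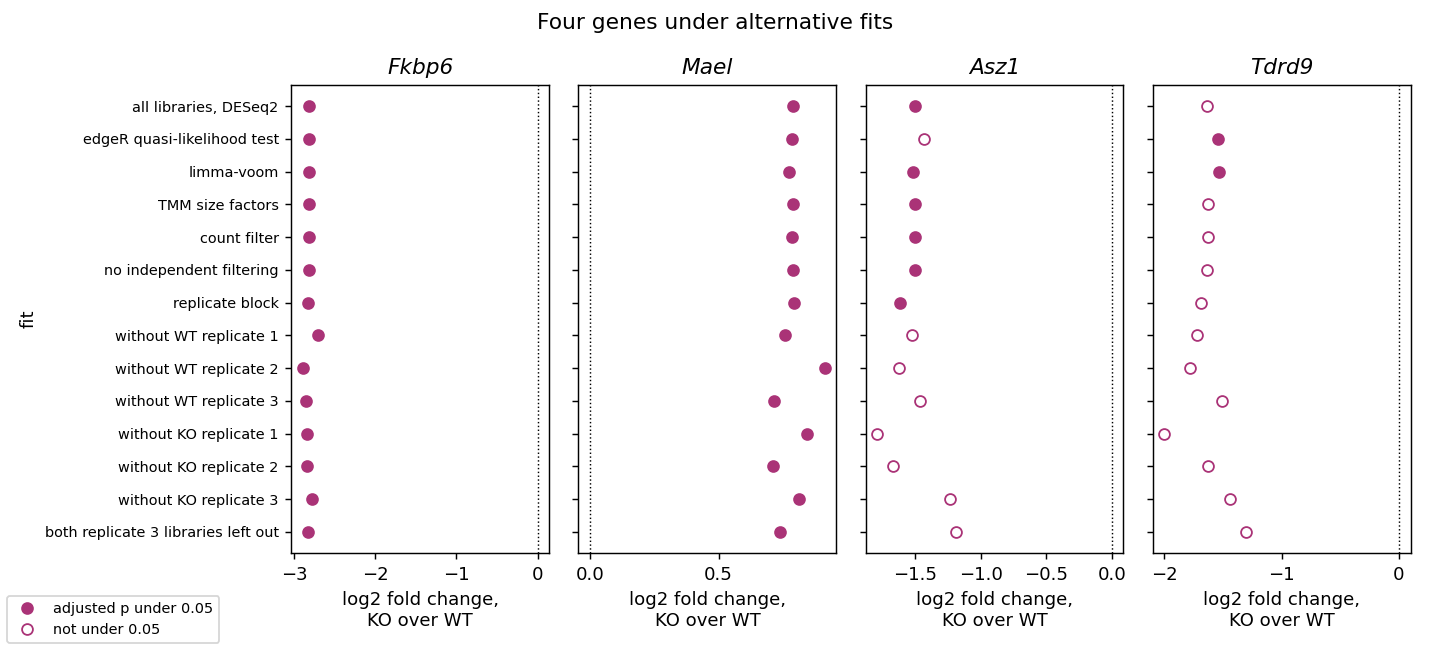
Log2 fold change (KO over WT, x axis, with a scale of its own in each panel) of *Fkbp6*, *Mael*, *Asz1* and *Tdrd9* in the fit reported and in 13 alternative fits, 1 per line, filled where the adjusted p was under 0.05. *Fkbp6* and *Mael* are filled throughout, *Asz1* is open with edgeR and in each fit that leaves libraries out, and *Tdrd9* is filled with edgeR and limma-voom alone, and every point of a gene is on the same side of 0.

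Levels of different genes were compared per kilobase of exon (GENCODE M21). *Fkbp6* was the highest of the 10 in WT, at 375 ± 48.7 normalized counts per kb (SD, n = 3), above 82.1% of 16408 protein coding genes with a count. *Ddx4* followed at 181 ± 38.0. *Tdrd12*, *Mael* and *Piwil2* came next at 96.8 ± 18.2, 95.6 ± 14.4 and 85.6 ± 8.46 per kb, with ranges that overlapped from each to the next. *Mov10l1* had 61.0 ± 7.87 per kb. *Asz1*, *Tdrd1*, *Tdrkh* and *Tdrd9* were much lower, at 13.2 ± 1.40, 9.31 ± 3.92, 7.33 ± 0.605 and 4.05 ± 0.887 per kb. Of these, the ranges of *Asz1* and *Tdrd1*, and of *Tdrd1* and *Tdrkh*, overlapped.

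In KO the order at the top was *Ddx4* (214 ± 28.6 per kb), *Mael* (168 ± 14.8), *Tdrd12* (99.5 ± 17.6) and *Piwil2* (89.9 ± 11.3), and the ranges of *Tdrd12* and *Piwil2* overlapped. *Fkbp6* was sixth, at 52.6 ± 3.77 per kb, with a range that overlapped that of *Mov10l1* (56.5 ± 4.88). *Mael* moved from above 59.8% to above 69.5% of protein coding genes, and *Fkbp6* from above 82.1% to above 51.2%. *Fkbp6* made up 38.0% to 45.1% of the summed level per kb of the 10 genes in the WT libraries and 6.70% to 8.22% in the KO libraries. The sum was 901 to 957 per kb in WT and 666 to 728 in KO. Without *Fkbp6* the sum was 525 to 576 in WT and 611 to 674 in KO, so the lower total in KO rested on *Fkbp6*.

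**Figure D4:**
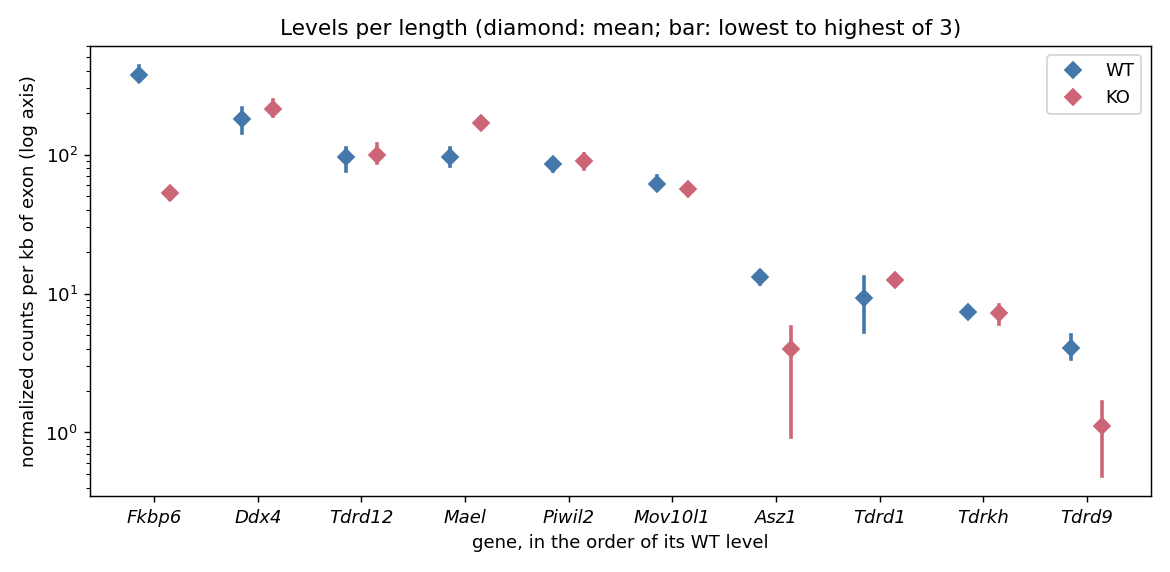
Normalized counts per kilobase of exon (log axis) of the 10 genes in the order of their WT level, WT in blue and KO in red, with the mean of 3 libraries as a diamond and the lowest to highest library as a bar. *Fkbp6* is first in WT and sixth in KO, and *Asz1* and *Tdrd9* are the other genes whose KO bar lies wholly under the WT bar.

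The nearest protein coding genes beside the 3 genes that passed were then examined, to see whether their neighbours moved with them. Beside *Fkbp6*, *Trim50*, 3251 bases from it, had 15, 6 and 1 counts in WT and 7, 4 and 1 in KO. Its log2 fold change was -0.86 (95% interval -2.91 to 1.18), with no adjusted p-value. *Fzd9*, 40474 bases away on the other side, had a log2 fold change of -0.28 (adjusted p 0.669, DESeq2). Beside *Mael*, *Gpa33*, a cell surface protein gene 34691 bases away, was lower in KO, opposite to *Mael*, with a log2 fold change of -0.42 (adjusted p 0.0408). *Ildr2*, 15392 bases away on the other side of *Mael*, had a log2 fold change of 1.08, in the direction of *Mael*. Its KO libraries all lay above its WT libraries, but it did not pass (adjusted p 0.125, DESeq2). Beside *Asz1*, *Wnt2* and *Cftr* had at most 12.5 normalized counts in any library. Of the 4 neighbours with an adjusted p-value, 1 passed, beside 7.49% of all genes tested. No exon of another gene in the annotation overlapped *Fkbp6*, *Mael* or *Asz1*.

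Other genes of the piRNA pathway also went both ways. Of 24 listed genes, 22 were in the files and 20 had an adjusted p-value. Of these 20, 4 passed, 2 higher and 2 lower in KO, beside the background of 7.49%. With the replicate number as a block 6 passed, these 4 with *Morc1* and *Hsp90aa1*, beside 14.6% of all genes. *Gpat2*, whose product is a mitochondrial protein that binds MILI, had 346, 248.6 and 263 normalized counts in WT and 177, 144 and 116 in KO. The log2 fold change was -0.95 (adjusted p 0.000198 by DESeq2, SE 0.21). *Tex15*, which takes part in piRNA-directed DNA methylation, rose from 642, 603 and 646 normalized counts to 942, 901 and 936. On the log2 scale the rise was 0.56 (adjusted p 3.73e-05 by DESeq2, SE 0.11). For both genes the ranges of the genotypes were apart, and both passed in all 13 alternative fits.

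*Stk31*, a Tudor protein with a kinase domain, rose by a log2 fold change of 0.43 (adjusted p 0.00821 by DESeq2, SE 0.12), and missed the threshold without WT replicate 2 (0.142) or KO replicate 1 (0.117). *Tex19.1*, a germline protein that restrains transposons and the most abundant of the 4 genes by count, fell from 4823, 4368 and 4110 to 3546, 3624 and 3438 normalized counts (log2 fold change -0.33, SE 0.10, adjusted p 0.0152). *Tex19.1* lies on chromosome 11, where the median log2 fold change of 1203 genes was -0.27, and missed the threshold when any single library other than WT replicate 3 was left out (adjusted p 0.0686 to 0.176). *Piwil1*, the PIWI protein of later germ cells, had 43.5, 49.4 and 63.0 normalized counts in WT and 25.4, 31.4 and 34.4 in KO, with a log2 fold change of -0.76 that did not pass (adjusted p 0.200). *Henmt1*, the methyltransferase of piRNA ends, had 28.0, 41.7 and 32.9 in WT and 59.8, 70.6 and 50.2 in KO, with a log2 fold change of 0.84 that did not pass with DESeq2 (adjusted p 0.111) and passed with limma-voom (0.0473). *Prmt5* encodes the enzyme that methylates the arginines that Tudor proteins bind, and *Wdr77* encodes its partner. These 2 genes had log2 fold changes of -0.12 and -0.01 (adjusted p 0.751 and 0.969, DESeq2).

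**Figure D5:**
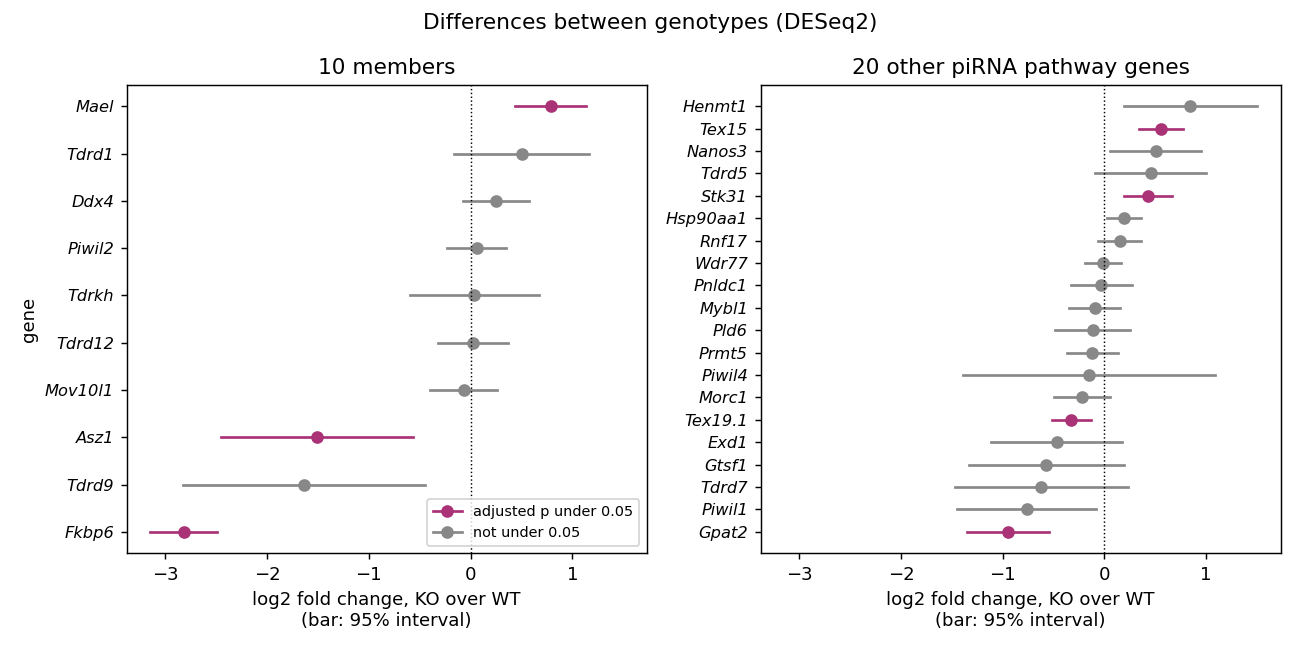
Log2 fold change (KO over WT, x axis) with its 95% interval for the 10 genes (left) and for the 20 other piRNA pathway genes with an adjusted p-value (right), coloured where the adjusted p was under 0.05. Coloured intervals lie on both sides of 0 in both panels, and *Fkbp6*, at -2.82, is farthest from 0.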

How the data were processed

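Stranded libraries were prepared from total RNA after removal of ribosomal RNA. The values deposited by the authors are raw read counts, 1 file for each library and 1 row for each gene symbol. The submitters' processing notes name TopHat2 (2.1.1), Bowtie2 (2.3.1.0), featureCounts (1.6.2) and DESeq2 on mm10. The annotation and strand setting used in counting were not given in the sources used here. Each library was placed in its genotype by its title, and the study calls the 3 replicates of each genotype biological. The labels do not say whether they were separate cultures, and p-values measure the spread between these libraries.

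KO was compared with WT by the two-sided Wald test of DESeq2 (version 1.42.0) on all genes, as in the study's methods, with median-of-ratios size factors, genotype as the model, independent filtering optimised at 0.1 and Benjamini-Hochberg adjustment, at a threshold of 0.05. Intervals are 95% Wald intervals, and floors of 3 counts cover counting error only. Alternatives were TMM size factors, edgeR (4.0.16), limma-voom (limma 3.58.1), a block for the replicate number, a count filter (10 or more in 3 or more libraries), independent filtering turned off, and fits without each library or without both replicate 3 libraries. The code was tested on simulated counts. To check the pairing, each library was set against its genotype mean: WT and KO libraries with the same number in their titles deviated together (r of 0.469, 0.619 and 0.684 for replicates 1 to 3, over 11524 genes), so the numbers pair them. Every 2 libraries differed by more than sampling noise (smallest chi-square per degree of freedom 9.50).

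Positions and exon lengths came from GENCODE M21 (GRCm38, the build of mm10) and promoters from RefSeq. The genes named are the 10 members, *Patz1*, *Pou5f1*, list genes that passed, and neighbours of members that passed. Others named for contrast were chosen after their values were seen. The members, lists and tests were chosen with earlier results of these data known.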

Additional observations from a re-analysis of the deposited data

How the results depend on the processing

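The 10 genes were compared under 13 alternatives. The number that passed was 3 with edgeR (beside 6.41% of all genes), with TMM size factors (7.22%), under the count filter (7.94%), with independent filtering off (5.54%) and in the replicate block fit (14.6%), 4 with limma-voom (beside 7.94% of all genes), and 2 in each fit without 1 library (beside 3.8% to 8.8%) and without both replicate 3 libraries (beside 8.77%). The number lower in KO was 1 in each of the 6 fits without 1 library and 1 without both replicate 3 libraries. The gene lost was *Asz1*, and these fits hold fewer libraries. *Fkbp6* and *Mael* passed in all 13 alternatives. With edgeR, *Tdrd9* passed in place of *Asz1*.

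The replicate numbers paired the libraries, and the fit with the replicate number as a block changed the call of none of the 10 genes. The number of all genes that passed was 2131 with the block, and from 583 to 1341 without 1 library (583 and 590 on leaving out KO replicate 1 or 2, and 605 and 664 on leaving out WT replicate 1 or 2). Of the other pathway genes, 6 passed with the block (*Morc1* and *Hsp90aa1* besides the 4 named), 5 with limma-voom (*Henmt1* besides the 4), and from 2 to 4 without 1 library (2 without WT replicate 2 or KO replicate 1). Of 18 genes of DNA methylation and germline gene silencing, 3 passed with the block (*Dnmt3l*, *Uhrf1* and *E2f6*), beside 14.6% of all genes. With edgeR 0 passed (2 at an unadjusted p under 0.05), with limma-voom 0 (3) and without both replicate 3 libraries 0 (3). Without 1 library from 0 to 1 passed. The number was 0 without WT replicate 2 (3 at an unadjusted p under 0.05), KO replicate 1 (1) or KO replicate 3 (2). The cause was not tested.

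Genes near 0 changed sign without reaching the threshold. On leaving out 1 library at a time, the log2 fold change ran from -0.0702 to 0.118 for *Tdrkh* (below 0 on leaving out replicate 2 of either genotype), from -0.0257 to 0.154 for *Piwil2* (below 0 for WT replicate 2 or KO replicate 3), from -0.128 to 0.0187 for *Mov10l1* (above 0 for WT replicate 3) and from -0.139 to 0.139 for *Tdrd12* (below 0 for WT replicate 3 or KO replicate 2). Without both replicate 3 libraries it was 0.0702 for *Mov10l1* and -0.0517 for *Tdrd12*, and limma-voom gave -0.0207 for *Tdrd12*. With the length of the longest transcript in place of all exons, the WT level per kb was 455 for *Fkbp6* and 15.9 for *Asz1*, the ranges of *Asz1* and *Tdrd1* no longer overlapped, and *Fkbp6* stood above *Mov10l1* in KO. The values of *Asz1* and *Tdrd9* rest on 183 and 99 counts in all.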

Other observations

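Genes of DNA methylation and of germline gene silencing were measured in the same fit. The list held 18 genes of DNA methylation and of repressors, among them the complexes that act at E-box and E2F sites. It included *Tet1* and *Tet2*, which act in the removal of methylation. Of the 18, 1 (5.56%) passed, beside 7.49% of all genes. This was *Dnmt3l*, the cofactor of the enzymes that set new methylation, which had 6514, 4388 and 5317 normalized counts in WT and 8471, 6397 and 8557 in KO (log2 fold change 0.53, SE 0.15, adjusted p 0.00953, DESeq2). The ranges of its genotypes overlapped, while KO was higher within each pair of equal replicate number (by 0.38, 0.54 and 0.69 on the log2 scale). *Dnmt3l* passed in 7 of 13 alternative fits, with an adjusted p of 1.37e-13 by DESeq2 with the replicate number as a block. It missed the threshold with edgeR (adjusted p 0.0863), with limma-voom (0.0703), without WT replicate 2 (0.159), on leaving out replicate 1 (0.169) or 3 (0.0767) of KO, and without both replicate 3 libraries (0.569). *Mga* and *Max*, which bind the E-box, had log2 fold changes of -0.06 (95% interval -0.29 to 0.17) and 0.02 (-0.20 to 0.24), and *Pcgf6* and *L3mbtl2*, of the same complex, 0.04 and -0.12. *E2f6* had 523, 535 and 518 normalized counts in WT and 667, 653 and 608 in KO, without overlap, and did not pass (log2 fold change 0.30, adjusted p 0.121 by DESeq2), except with the replicate number as a block (adjusted p 0.0487). *Dnmt1* had a log2 fold change of 0.09 (adjusted p 0.706) and *Uhrf1*, which guides it to copied DNA, -0.19 (adjusted p 0.327, and 0.0108 with the block).

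Of the 9 markers of germ cells and meiosis, of which *Nanos2* and *Nanos3* were also listed with the other pathway genes, 8 had an adjusted p-value. Of these, 2 passed, 1 lower and 1 higher in KO, beside 7.49% of all genes, and *Sycp1*, *Sycp3*, *Stra8*, *Nanos3*, *Prdm1* and *Dmrt1* did not. *Dazl*, an RNA-binding protein of germ cells, had 661, 715 and 794 normalized counts in WT and 434, 458 and 460 in KO (log2 fold change -0.67, SE 0.13, adjusted p 8.86e-06, DESeq2). *Syce1*, a protein of the synaptonemal complex, had 543, 516 and 471 in WT and 830, 771 and 724 in KO (log2 fold change 0.60, SE 0.12, adjusted p 7.81e-05).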
